A study of Homo sapiens with 14 samples.

Results

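The distribution of mRNAs between heavy and light polysomes was compared in MDA-MB-231 cells silenced for DAP5. The comparison took 4 of the 14 libraries in the series, the heavy and the light polysome library of each of 2 shDAP5 cultures, and all gene symbols with at least 10 counts in 2 or more of them, which left 15436 of 58434 symbols. MDA-MB-231 is an established human triple-negative breast cancer line with mesenchymal features. The stable lines carried a doxycycline-inducible TRIPZ lentiviral shRNA, against DAP5 (shDAP5) or non-silencing (shNSi), and had been sorted by the red fluorescent protein that the same vector expresses. Both shDAP5 and shNSi cells received doxycycline at 1 µg/ml for 6 days, so hairpin induction and the antibiotic were common to every group. Heavy polysomes were defined in the study as mRNA with 4 or more ribosomes and light polysomes as mRNA with 2 or 3, recovered from a sucrose gradient after cycloheximide. The shNSi cells (2 cultures) served here as the comparison, with heavy, light and moderate pools. The light libraries of shDAP5 cells are titled light polysome, but their codes carry the letters that mark the moderate pool in shNSi cells, so the shNSi moderate pool was also used as a control. The study describes 2 sets of experiments done independently, while the labels give only a replicate number, read here as a culture. They do not say how the cultures of a line were kept apart, so the p-values measure the spread between these libraries.

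A translating mRNA carries more ribosomes when its coding sequence is longer, when initiation is faster or when elongation is slower, and the sucrose gradient sorts mRNAs by that number. DAP5, encoded by EIF4G2, is a relative of the scaffold protein eIF4G that lacks the binding site for the cap-binding protein eIF4E. TOP mRNAs, which encode ribosomal proteins and translation factors, begin with a C followed by an unbroken run of pyrimidines, and their entry into polysomes is controlled by mTOR signalling. The ratio of heavy to light counts used below is relative within each library, since no spike-in RNA was listed: a higher ratio can come from more of an mRNA in heavy polysomes or from less of it in light ones.

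The starts of 8 TOP mRNAs are shown because mRNAs with this start lay on both sides of the heavy-to-light comparison, and because RPL3, on the heavy side, has a shorter run at its annotated start, a C and only 3 pyrimidines, which is under the minimum of 4 used here and is not capitalized. Each line gives 15 bases before and 15 bases from the annotated RefSeq start on the gene's strand (GRCh38.p14), 5′ to 3′, with the C and its run of 4 or more pyrimidines in capitals.
RPL41: cggaacttcgcctttCTCTCggccttagcg
RPS27: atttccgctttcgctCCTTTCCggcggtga
RPS21: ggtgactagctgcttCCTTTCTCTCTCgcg
RPS6: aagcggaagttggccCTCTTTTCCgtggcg
EEF1A1: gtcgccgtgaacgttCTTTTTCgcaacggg
EEF2: gttgacgtcagcgttCTCTTCCgccgtcgt
RPLP0: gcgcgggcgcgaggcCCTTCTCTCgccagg
RPL3: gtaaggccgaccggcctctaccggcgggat
The RPL41 window lies at chr12:56116618-56116647 (plus strand), RPS27 at chr1:153990747-153990776 (plus) and RPS21 at chr20:62387088-62387117 (plus). RPS6 lies at chr9:19380222-19380251 (minus), EEF1A1 at chr6:73521018-73521047 (minus) and EEF2 at chr19:3985449-3985478 (minus). RPLP0 lies at chr12:120201097-120201126 (minus) and RPL3 at chr22:39319609-39319638 (minus). Each window straddles the start of exon 1, so its second part is the first stretch of the 5′ UTR.

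EIF4G2, the silenced gene, was measured in total RNA at 578 and 796 CPM (counts scaled to a common library total) in shDAP5 cells and at 1494 and 1381 CPM in shNSi cells, so the shDAP5 libraries were the lower ones. Within shDAP5 polysomes its remaining mRNA was at 732 and 749.8 CPM, scaled from here on by TMM (trimmed mean of M-values) factors, in the heavy libraries of cultures 1 and 2 and at 613 and 731 CPM in the light libraries. Its log2 ratio of heavy to light was 0.15 ± 0.33 (SE, n = 2 cultures), with an adjusted p of 0.737. The lower heavy library exceeded the higher light library only narrowly. Total counts of the 4 libraries ranged from 26571931 to 27941831. Log2 CPM of the 2 cultures correlated at r = 0.981 in heavy and 0.989 in light libraries, taken over genes. The markers listed for this line, VIM, CD44, AXL, EGFR, MSN and SPARC, were all measured, and ESR1, a marker of luminal lines, stayed between 0.083 and 0.473 CPM, PGR at 0 counts and CDH1 at 3 to 8 counts. The luminal or epithelial markers KRT19, GATA3 and EPCAM were measured all the same, at 5.69 to 29.2, 10.5 to 17.5 and 3.85 to 5.98 CPM. PTPRC and CD3E, markers of leukocytes and T cells, had 0 to 7 and 0 counts.

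In shDAP5 cells 3818 genes were higher in heavy polysomes (24.7% of those tested) and 3857 were higher in light polysomes (25%), by edgeR's quasi-likelihood test with culture as a block and an adjusted p under 0.05. They are referred to as called heavy and called light. Among called genes averaging at least 10 CPM, the heavy side was led by mRNAs of glycolysis and the chaperonin. Under the same minimum the light side was led by mRNAs of very short proteins and by noncoding transcripts. Log2 ratios ran from -1.85 at the 5th percentile to 1.53 at the 95th, and 543 genes lay below -2 against 204 above 2. The sign was the same in both cultures for 81.8% of genes. At an unadjusted p under 0.05 there were 8524 genes. Scaling by library size without TMM moved the median of all genes from -0.029 to -0.22 and the calls to 2705 higher in heavy and 4594 higher in light, 37.1% against 49.7% of calls on the heavy side. With culture 1 left out the calls were 1722 and 1615, and with culture 2 left out 1727 and 1589, in fits that took the spread from the other libraries. The filter admitted 717 genes through the light libraries only, of which 452 were called light, and 78 through the heavy libraries only, of which 53 were called heavy. Of the genes at its edge, 227 had a second-highest count of 10 and 217 had 9.

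The 10 genes highest in heavy polysomes were taken among called genes averaging at least 10 CPM, with the same sign in both cultures. They had 4 enzymes of glycolysis among them. PGK1, which makes the first ATP of that pathway, was at 1405 and 1212 CPM in the heavy libraries of cultures 1 and 2 and 241 and 166 CPM in the light ones, a log2 ratio of 2.71 ± 0.36 (SE, n = 2 cultures, adjusted p = 6.32e-12). GAPDH was at 8383 and 11983 CPM in heavy and 2144 and 1461 CPM in light (2.50 ± 0.54, adjusted p = 2.37e-05). ENO1 (enolase) and PKM (pyruvate kinase) had log2 ratios of 2.50 and 2.43. In all 4 of these genes both heavy libraries lay above both light libraries, with no overlap. CCT7, a subunit of the chaperonin that folds actin and tubulin, was at 580.1 and 639 CPM in heavy and 109 and 90.3 CPM in light libraries (2.62 ± 0.31), and CCT5, another subunit, at 890.4 and 954 against 179.6 and 164 CPM (2.43 ± 0.33). All 8 chaperonin subunits (TCP1 and CCT2 to CCT8, the A form of CCT6) were called heavy with a median of 2.08, a group chosen after its values were seen. The remaining 4 were ATP5B (ATP synthase beta subunit, 2.49), PDHA1 (pyruvate dehydrogenase, 2.46), NUDC (a dynein co-factor, 2.43) and SNRNP70 (a U1 snRNP protein, 2.42).

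Among the 10 genes lowest in heavy relative to light polysomes, taken by the same rule, were 4 with short coding sequences. RPL41, which encodes one of the shortest known proteins of the ribosome, was at 431 and 407 CPM in heavy and 1992 and 2583 CPM in light libraries (-2.44 ± 0.40, adjusted p = 1.96e-08). COMMD6 stood at 15.4 and 13.9 CPM against 76.4 and 87.9 CPM (-2.48 ± 0.28, adjusted p = 4.12e-15), and POLR2K, a small subunit shared by the RNA polymerases, at 45.3 and 48.2 against 226 and 267 CPM (-2.39 ± 0.27). COPS9, the small subunit of the COP9 signalosome, had a log2 ratio of -2.38. The annotated coding sequences of these 4 genes run from 75 to 255 nt. The rest were transcripts without an annotated coding sequence, CASC8 (-2.51), the snoRNA host SNHG6 (-2.44), LINC00601 (-2.42) and TMSB4XP8 (-2.44), and a pair of symbols that had no match in the annotation, RP11-669N7.2 (-2.46) and RP11-295G20.2 (-2.42). TMSB4XP8 is a pseudogene near-identical to TMSB4X, so its reads are uncertain. In each of the 10 genes both light libraries exceeded both heavy libraries.

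**Figure D1:**
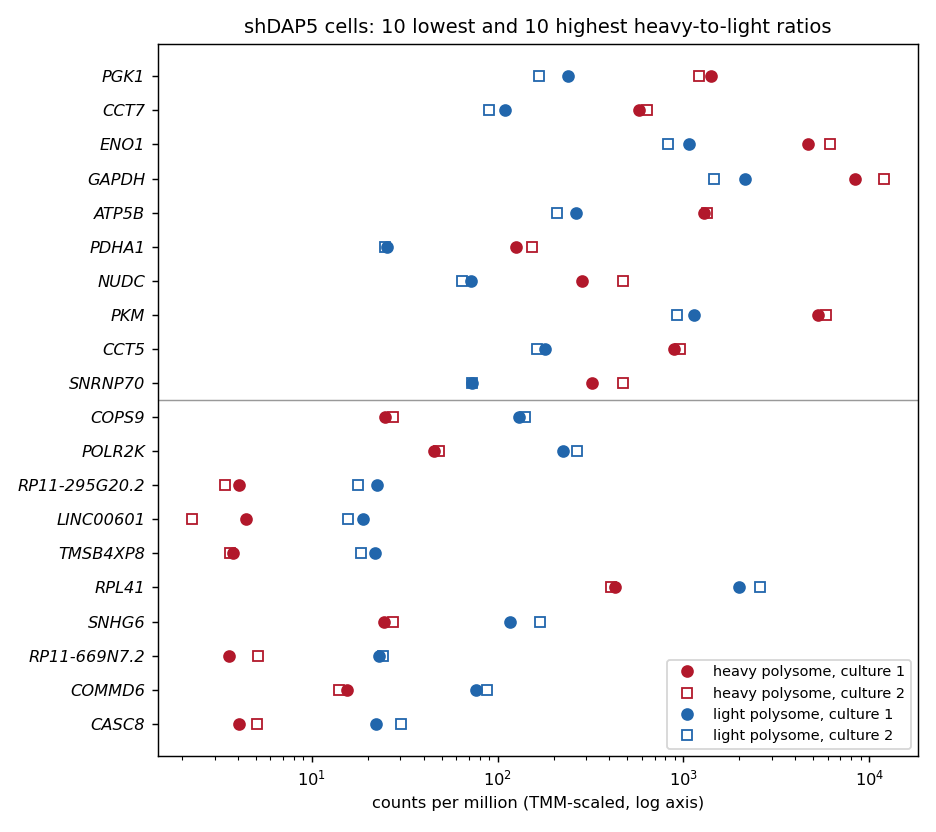
TMM-scaled CPM (log axis) of the 10 genes with the lowest and the 10 with the highest heavy-to-light ratios in shDAP5 cells, one point for each heavy (red) or light (blue) library of culture 1 (filled circle) and culture 2 (open square). Heavy and light points do not overlap in any of the 20 genes, which were chosen for this ratio. The choice was among called genes averaging at least 10 CPM, with the same sign in both cultures.

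Glycolytic enzymes had a median of 2.01, against -0.029 over all genes tested, of which 24.7% were called heavy and 25% light. Of 18 measured members, 17 were called heavy and TPI1 did not pass the test (0.41 ± 0.40, adjusted p = 0.404). LDHA was at 3693 and 4414 CPM in heavy and 967 and 1119.5 CPM in light libraries (1.96 ± 0.44). The summed level of the list was 30818 and 39362 CPM in heavy libraries against 8756 and 7699 CPM in light libraries. Actins and tubulins had a median of 1.84, with 12 of 13 members called heavy, ACTB at 1.99 and TUBA1A at 2.35. The exception, TUBB2B, was called light at -0.75 ± 0.33 (adjusted p = 0.0495). Close paralogs share reads within these families, so single members are uncertain.

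Chaperones, proteasome subunits and aminoacyl-tRNA synthetases were mostly on the heavy side, where 24.7% of all genes were called heavy and 25% light. Cytosolic and mitochondrial heat shock proteins had 11 of 13 members called heavy and a median of 1.84, with HSPD1 (mitochondrial HSP60) at 2.16 ± 0.30 and HSPA8 at 1.44 ± 0.42. HSPE1 (HSP10), the partner of HSPD1 with a coding sequence of 306 nt, was called light at -0.83 ± 0.27 (adjusted p = 0.00615). Proteasome subunits had 30 of 34 called heavy and none light, with a median of 1.29. PSMD3, a lid subunit, was at 378 and 554 CPM in heavy and 98.3 and 95.9 CPM in light (2.24 ± 0.29), and PSMB2, a core subunit, had a ratio of -0.23 ± 0.28 (adjusted p = 0.515). Aminoacyl-tRNA synthetases had 18 of 20 called heavy (median 1.24), from HARS at 2.14 to CARS at 0.29 ± 0.26 (adjusted p = 0.357). Endoplasmic reticulum chaperones had 13 of 16 called heavy (median 1.04), with PDIA3 highest at 1.89 and HSP90B1, an abundant member, at 0.025 ± 0.29 (adjusted p = 0.951). None of the members of these last 2 lists was called light.

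Among the translation initiation factors, eIF3 subunits were called heavy or not called, where 24.7% of all genes were called heavy, and eIF4F members were called in both directions. The scaffold eIF3 had 9 of 14 subunits called heavy and none light (median 1.04), with EIF3I at 2.14 ± 0.29, EIF3D at 2.05 ± 0.28 and EIF3B at 1.99 ± 0.30. EIF3J, a loosely bound subunit, had a ratio of -0.43 ± 0.26 (adjusted p = 0.163). In the eIF4F list 3 of 13 were called heavy, about the share of all genes, and 5 light (25% of all genes), with a median of 0.15 that became -0.050 without TMM scaling and -0.16 without the filter on low counts. EIF4G1, the main scaffold, was called heavy at 0.83 ± 0.30 (adjusted p = 0.0151), with 555 and 541 CPM in heavy and 294 and 324 CPM in light libraries. EIF4E, the cap-binding protein, was called light at -1.70 ± 0.26 (adjusted p = 3.23e-09), with 52.4 and 37.4 against 135 and 153 CPM. EIF4EBP1, the inhibitor of EIF4E, was at 78.5 and 135 CPM in heavy and 268 and 290.3 CPM in light libraries (-1.44 ± 0.27). EIF4A1, the helicase, was listed at only 0.581 to 1.69 CPM, and since it shares its exons with a read-through gene its value is uncertain.

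mRNAs of the cytosolic ribosome were called light more than heavy. Of 83 measured members, 40 were called light and 7 heavy, with a median of -0.77, where 25% of all genes were called light and 24.7% heavy. RPS27 was at 299 and 389 CPM in heavy and 1379 and 1644 CPM in light libraries (-2.14 ± 0.37, adjusted p = 7.91e-08), and RPS21 at 299 and 457 against 1393 and 1339 CPM (-1.89 ± 0.36). At the other end RPL15 was at 1646 and 2265 CPM in heavy and 807 and 572 CPM in light (1.51 ± 0.39, adjusted p = 0.000446), and RPL5, which binds 5S rRNA, had a ratio of 1.33 ± 0.41. The 10 members with coding sequences up to 300 nt were all called light, with a median of -1.89, and the 43 from 300 to 500 nt had a median of -0.97. The 19 from 500 to 750 nt had a median of 0.27 and the 11 above 750 nt a median of 0.55. Spearman's rho with coding length was 0.72 over the 83 genes, which share the same 4 libraries. The cultures differed in level: the list summed to 71723 CPM in the heavy library of culture 1 and 118281 CPM in that of culture 2, against 126970 and 115647 CPM in the light libraries, and its median ratio was -1.20 and -0.27. Ribosomal protein genes have many processed pseudogenes, which can take or lend reads.

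TOP mRNAs outside the ribosome lay on the heavy side, with 11 of 16 called heavy, none called light and a median of 1.15. EEF1A1, which delivers aminoacyl-tRNA, was at 7839 and 7811 CPM in heavy and 4542 and 2416 CPM in light libraries (1.24 ± 0.51, adjusted p = 0.0326). That call was lost with limma (0.49, adjusted p = 0.0711), with at least 10 counts in every library (1.16, 0.0568), without culture 1 (1.69, 0.0745) and without culture 2 (0.85, 0.327). EEF2, the translocase, was at 1666 and 1453 against 727 and 511 CPM (1.35 ± 0.37, adjusted p = 0.000933), and NPM1 had a ratio of 1.29. EEF1B2, with a coding sequence of 675 nt, had a ratio of -0.054 ± 0.34 (adjusted p = 0.909). The start pattern shown above, a C at the annotated start followed by at least 4 C or T on the gene's strand, was found in 44 of 67 ribosomal protein genes and 8 of 10 other TOP genes that had an entry, against 4.04% of all 27305 entries. Among genes with the pattern, 543 were tested, with 153 called heavy, 142 called light and a median of 0.11. Of all 10364 tested genes that had an entry, 2924 were called heavy and 2193 light, so that 5.24% of these genes, 5.23% of the heavy calls and 6.48% of the light calls held the pattern. Length did not order every member: RPLP0 (951 nt) and RPSA (885 nt), which have the pattern, had ratios of -0.43 and -0.27, TPT1 (516 nt) had 0.69, and RPL3 (1209 nt), with the shorter run, had 1.23.

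**Figure D2:**
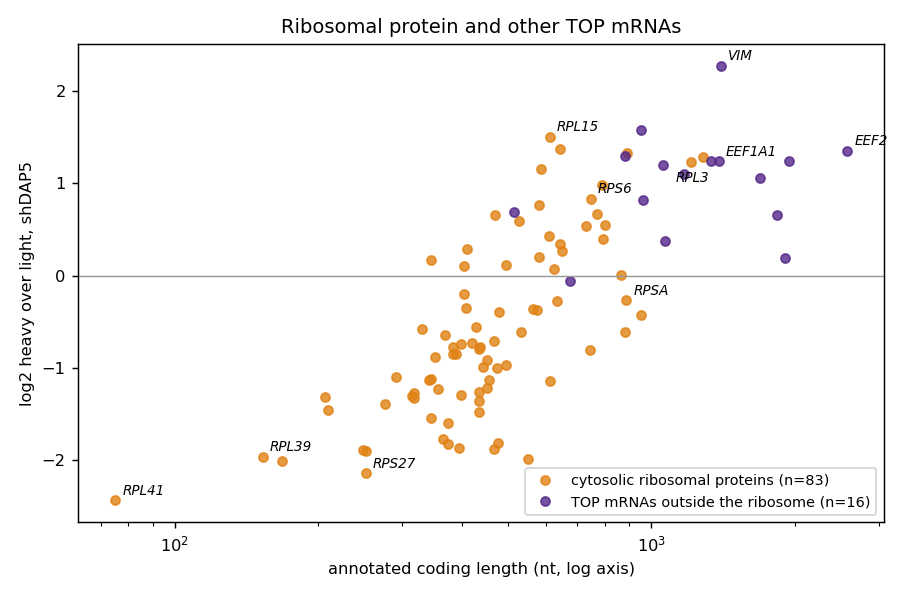
Log2 ratio of heavy to light polysomes in shDAP5 cells (y axis) against annotated coding length in nt (x axis, log scale), one point per gene, for 83 cytosolic ribosomal proteins (orange) and 16 other TOP mRNAs (purple). Ribosomal protein mRNAs up to 300 nt all lie below -1, and RPL41 is lowest at -2.44.

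The mitochondrial gene lists had calls in both directions, where 24.7% of all genes were called heavy and 25% light. Nuclear genes of the respiratory chain had 20 of 66 members called heavy and 30 light, with a median of -0.23 that turned to 0.13 when culture 1 was left out. ATP5B was at 1296 and 1346 CPM in heavy and 265 and 209 CPM in light libraries, while NDUFB3, a small subunit of complex I, was at 37.6 and 44.1 against 170.2 and 154 CPM (-1.99 ± 0.26, adjusted p = 6.76e-12). ATP5E, the smallest subunit of the ATP synthase F1 part, was at 250.1 and 322 against 1120.3 and 997 CPM (-1.90 ± 0.34). Mitochondrial ribosomal proteins had 28 of 77 called heavy and 17 light, the latter near the share of all genes, with a median of 0.34 that turned to -0.0056 without culture 2. Their range ran from MRPS6 at -1.77 ± 0.26 to MRPL39 at 1.95 ± 0.28. Genes encoded by mitochondrial DNA were not analysed here.

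Small proteins and histones lay on the light side, where 25% of all genes were called light and 24.7% heavy. Of 21 measured small ubiquitin-like, cytokine, S100 and thymosin genes, 18 were called light and 2 heavy, with a median of -1.49. TMSB4X, which sequesters actin monomers, was at 714 and 681 CPM in heavy and 3705 and 3089.6 CPM in light libraries (-2.28 ± 0.43, adjusted p = 1.06e-06). S100A6 was at 2211 and 2427 against 9585 and 5961 CPM (-1.71 ± 0.50), and the chemokine CXCL8 at 15.2 and 15.3 against 37.9 and 44.1 CPM (-1.42 ± 0.28). UBB, a polyubiquitin gene that encodes several ubiquitins in a row, was called heavy (1.07 ± 0.40). Replication-dependent histones had 21 of 30 tested members called light and none heavy, with a median of -1.44, and 18 of 25 were light without the 5 that passed the filter through light libraries only. Their mRNAs typically end in a stem-loop without a poly(A) tail, though the annotated HIST1H2AC transcript has a 3′ UTR of 1176 nt. Which form the reads came from was not tested. HIST1H2BK was at 17 and 15.4 CPM in heavy and 78.9 and 51.3 CPM in light libraries. Histone genes are near-identical to each other, and their summed level was only 70.3 and 59.4 CPM in heavy and 248 and 169 CPM in light libraries.

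mRNAs with upstream open reading frames and immediate-early genes gave mixed values. Of 10 stress-response mRNAs with upstream reading frames, 6 were called light and 1 heavy, with a median of -0.94. ATF4, the central transcription factor of that response, was at 581 and 653 CPM in heavy and 1451 and 1468 CPM in light libraries (-1.25 ± 0.36, adjusted p = 0.00209). DDIT3 (CHOP) was at 41.4 and 44.7 against 156 and 153 CPM (-1.85 ± 0.26). The heavy call was EPRS (0.61 ± 0.25, adjusted p = 0.0343). In the polyamine list, SAT1, OAZ2 and SRM were called light, SAT1 at -1.76 ± 0.27, and the other 5 of 8 were not called. None of the 7 iron-responsive mRNAs was called, with FTH1 at -0.82 ± 0.41 (adjusted p = 0.0889) and a median of -0.26 that turned to 0.024 without culture 2. In the list of AP-1 and other immediate-early factors 3 of 14 were heavy (FOSL2 1.33, JUN 0.96, MYC 0.68) and 3 light (FOS -1.29, EGR1 -1.08, IER3 -0.88). Both were near the shares of all genes (24.7% heavy, 25% light).

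Adhesion, matrix, giant and DNA repair genes showed positive medians that were smaller than those of glycolysis. Laminin and collagen chains had 13 of 25 called heavy and none light (median 0.73), and COL6A2 was at 67.5 and 86.1 CPM in heavy and 28.6 and 24.9 CPM in light (1.51 ± 0.27). Integrin subunits had 4 of 14 called heavy, near the 24.7% of all genes, 1 light and a median of 0.30. ITGB1, the common beta subunit, was called heavy at 1.13 ± 0.27 (adjusted p = 0.000118), and ITGAE was called light at -2.08 ± 0.27. Genes with very long coding sequences had 25 of 40 called heavy and none light (median 0.77). Here the cultures differed, with a median of 1.50 in culture 1 and 0.21 in culture 2. KMT2D, a histone methyltransferase, was at 119.7 and 59.1 CPM in heavy and 9.63 and 36.9 CPM in light libraries of cultures 1 and 2, with ratios of 3.63 and 0.68, and LAMA5 had ratios of 0.98 and -0.58. DNA repair genes had 17 of 31 called heavy and none light (median 0.69), with XRCC6 (Ku70) at 2.36 ± 0.32 and ATR at -0.47 ± 0.28 (adjusted p = 0.152).

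Splicing and decay factors had small positive medians, where 24.7% of all genes were called heavy and 25% light. Splicing factors of the SR family had 5 of 12 called heavy and none light (median 0.48), from SRSF4 at 1.36 ± 0.26 to SRSF3 at -0.42 ± 0.33 (adjusted p = 0.285). Factors of nonsense-mediated decay had 5 of 14 called heavy, among them UPF1 at 1.52 ± 0.26 and EIF4A3 at 1.92 ± 0.28, and 1 light, RBM8A at -0.95 ± 0.28 (median 0.46). EIF4A3 and RBM8A are both core proteins of the exon junction complex.

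**Figure D3:**
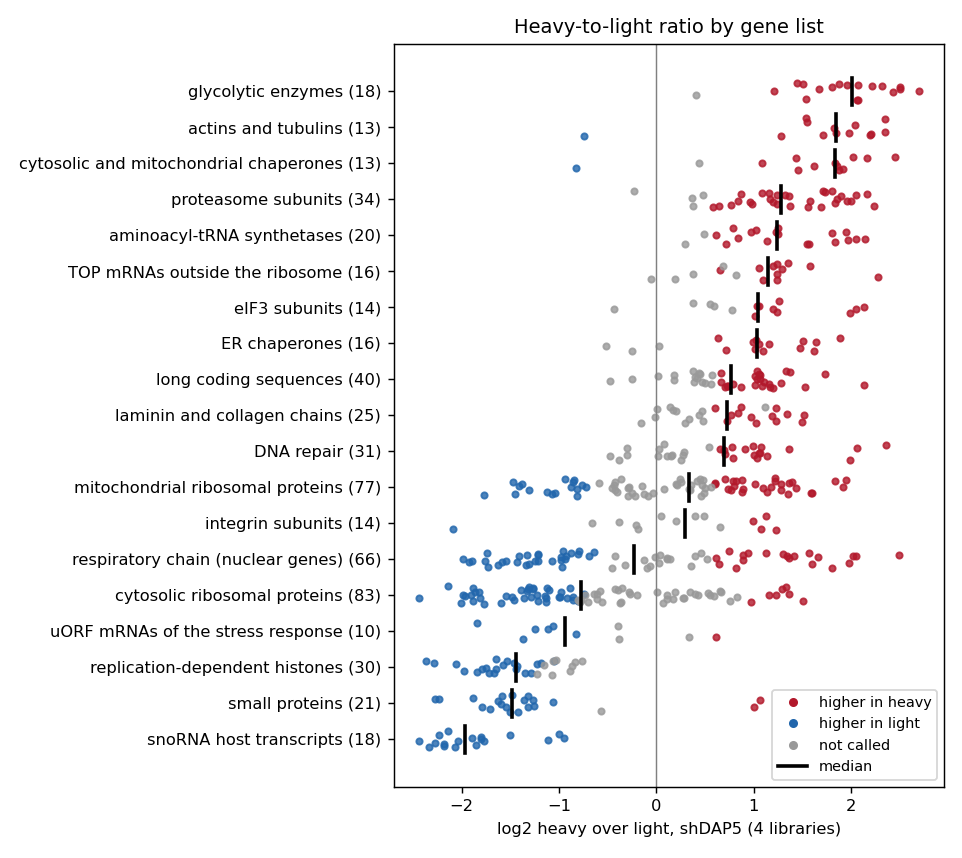
Log2 ratio of heavy to light polysomes in shDAP5 cells (x axis) for the tested members of 19 gene lists (y axis, number of genes in brackets), one point per gene, red for called heavy, blue for called light, grey for not called, with a black bar at the median. Medians run from -1.97 for snoRNA host transcripts to 2.01 for glycolytic enzymes.

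Noncoding transcripts lay mostly on the light side. Of 304 tested lincRNAs 219 were called light and 3 heavy (median -1.55), and of 303 antisense transcripts 201 were called light and 1 heavy (median -1.34), against 2422 light and 3637 heavy of 12634 protein-coding genes (median 0.13). These classes differed in level, with a median of 1.33 CPM for lincRNAs and 1.34 CPM for antisense transcripts against 29.4 CPM for protein-coding genes. Of the noncoding genes, 73 lincRNAs and 68 antisense transcripts passed the count filter through the light libraries only, and 2 lincRNAs through the heavy libraries only. Without them, a choice made after seeing the data, 165 of 229 lincRNAs (median -1.45) and 156 of 235 antisense transcripts (median -1.25) were called light. Where the counting could not separate strands, reads of an antisense gene and of its partner cannot be told apart. All 18 tested snoRNA host transcripts, whose introns release snoRNAs and whose exons hold at most short reading frames, were called light with a median of -1.97. GAS5 was at 156 and 212 CPM in heavy and 716 and 815 CPM in light libraries (-2.07 ± 0.32, adjusted p = 2.98e-09), and SNHG6 at 24.6 and 27.4 against 117 and 170.0 CPM (-2.44 ± 0.27). MALAT1, which is retained in the nucleus, was at 8.78 and 3.44 CPM in heavy and 21.7 and 20.6 CPM in light libraries and was called light (-1.91 ± 0.30). NEAT1, the scaffold of nuclear paraspeckles, was called light too (-1.51 ± 0.28). TUG1 had a ratio of -0.045 ± 0.26 (adjusted p = 0.9). Of 6 tested small structured RNAs, RPPH1 was called light (-1.90 ± 0.33) and the others were not called, with a median of -0.31 that turned to 0.17 when every library needed 10 counts and to 0.19 with limma on quantile-normalized values.

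The shDAP5 ratios rose with coding length up to about 1500 nt. Among the 12638 genes with an annotated coding sequence, Spearman's rho between length and the log2 ratio was 0.30, as a description over genes that share the same libraries. Up to 1500 nt rho was 0.47 (6864 genes), and above 1500 nt it was -0.067 (5774 genes), or 0.061 in culture 1 and -0.18 in culture 2. Of 257 genes with coding sequences up to 300 nt, 91.1% were called light, and the class median was -1.52. The median rose to 0.40 between 1500 and 2000 nt and was 0.23 above 5000 nt. In that last class the cultures parted, with medians of 0.63 in culture 1 and -0.14 in culture 2, and rho over all lengths was 0.41 in culture 1 and 0.16 in culture 2. Median coding length was 1557 nt for genes called heavy and 732 nt for genes called light. 5′ UTR length and 3′ UTR length gave rho of -0.026 and 0.040, the latter 0.15 in culture 1 and -0.079 in culture 2. ZNF genes, many of them zinc finger transcription factors, departed from the length order: 464 were tested, with 24 called heavy, 171 light and a median of -0.50. Of all genes 24.7% were called heavy and 25% light. The 179 ZNF genes between 1500 and 2000 nt had a median of -0.45, where all genes of that length had 0.40. Of these 179, 10 were called heavy and 65 light, where 39.6% and 11.3% of all genes of that length were. This group was picked by symbol after its values were seen.

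In shNSi cells the ratio of heavy to light had a wider spread, and that of heavy to moderate polysomes did not. Over the 15436 genes the SD of the log2 ratio was 1.49 in shNSi and 1.04 in shDAP5 cells, and 57.4% of genes were called in shNSi cells, 4386 higher in heavy (28.4%) and 4470 higher in light polysomes (29%). Against the shNSi moderate pool the SD was 0.99 and 35.4% of genes were called, 3338 higher in heavy and 2132 higher in moderate polysomes. Of the shDAP5 heavy calls 71.4% were shared, which is 62.2% of the shNSi heavy calls, and 76.0% of the light calls were shared, which is 65.6% of those in shNSi. Only 12 genes were heavy in shDAP5 and light in shNSi, and 19 the reverse. Above 5000 nt the class medians in the 2 shNSi cultures were 1.00 and 2.11 and those in the shDAP5 cultures, scaled together with them, were 0.66 and -0.14. In shNSi culture 2 the median rose from each class to the next, and in shNSi culture 1 it was highest, at 1.06, between 3000 and 5000 nt. Up to 300 nt they were -2.58 and -1.64 in shNSi and -1.67 and -1.35 in shDAP5 cells.

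**Figure D4:**
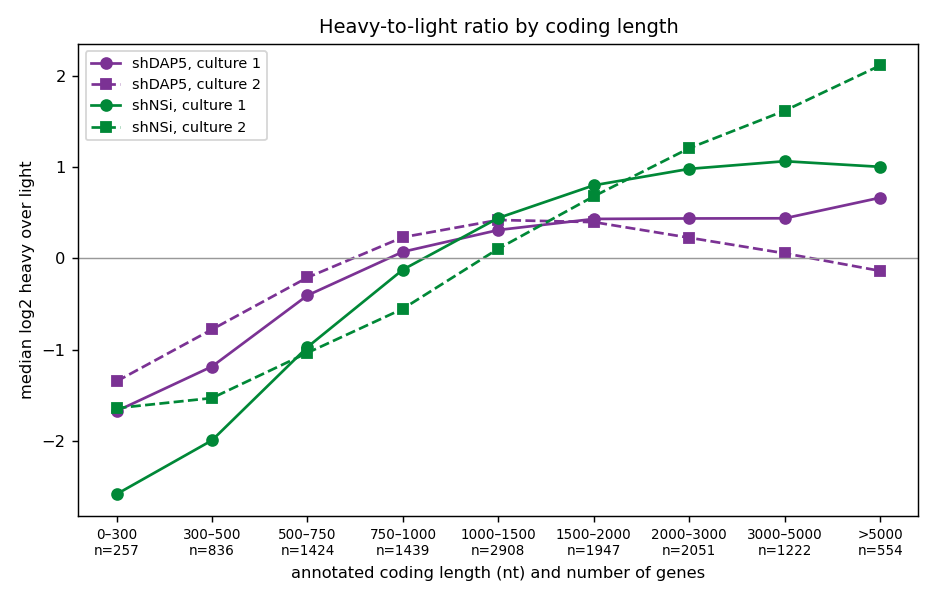
Median log2 ratio of heavy to light polysomes (y axis) in classes of annotated coding length in nt (x axis, with the number of genes), one line per culture of shDAP5 (purple) and shNSi (green). Between the class from 1500 to 2000 nt and the last one, the shDAP5 line of culture 1 goes from 0.43 to 0.66 and that of culture 2 falls from 0.40 to -0.14, and the shNSi lines end at 1.00 and 2.11.

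The difference between the lines was tested as an interaction over 8 libraries. The heavy-to-light ratio was higher in shDAP5 than in shNSi cells for 292 genes (1.89% of those tested) and lower for 1119 (7.25%), 9.14% in all. Calls of a lower ratio had a median coding length of 3090 nt and calls of a higher ratio one of 534 nt, and rho between coding length and the difference was -0.71 across genes (-0.44 against the moderate pool). Above 5000 nt 32.3% of genes were called lower and 0 of 554 higher, while up to 300 nt 6.23% were called higher and 0 of 257 lower. The median difference above 5000 nt was -1.26 against light and -1.17 against moderate polysomes. For short mRNAs it turned with the pool, from 0.56 to -0.92 up to 300 nt and from 0.79 to -0.13 between 300 and 500 nt. At an unadjusted p under 0.05 there were 3950 genes. The fits given below that left out a culture took in all remaining libraries, not only those of the main fit. With every culture kept, such a fit of all 14 libraries gave 791 higher and 2032 lower calls. With the shNSi moderate pool in place of the light pool the calls were 1652 higher (10.7%) and 2132 lower (13.8%), sharing 178 and 841 genes with the test against light. The calls fell to 0 in both directions by edgeR without the culture block, without shDAP5 culture 2 or without shNSi culture 2, and by limma, the genes named below included, with 3394, 2222, 4189 and 3810 genes at an unadjusted p under 0.05. Without shDAP5 culture 1 they were 617 and 1457, without shNSi culture 1 1184 and 1816, and without TMM scaling, which moved the median difference from 0.0062 to 0.29, 997 and 638, which put 61.0% of calls on the higher side against 20.7%.

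TOP2A, topoisomerase II alpha, had the lowest difference, with log2 ratios of 0.11 and -0.39 in the shDAP5 cultures and 2.02 and 3.26 in the shNSi cultures (difference -2.78 ± 0.54, adjusted p = 0.00768). THOC2, a subunit of the mRNA export complex THO, had ratios of -0.24 and -1.06 against 1.36 and 2.74 (-2.70 ± 0.47, adjusted p = 0.00768). UBA6, a ubiquitin-activating enzyme, differed by -2.66 ± 0.44, carboxypeptidase D (CPD) by -2.62 ± 0.42 and complement component C3 by -2.61 ± 0.57. C3 met the 10 CPM minimum only through the shNSi libraries: in shDAP5 cells it was at 1.12 and 2.41 CPM in heavy and 1.28 and 1.01 CPM in light libraries. These 5 genes have coding sequences of 3156 to 4989 nt. Among the highest differences, NCBP2-AS2, which is antisense to NCBP2 and so uncertain, had ratios of -0.31 and 0.95 in shDAP5 and -1.85 and -1.88 in shNSi cultures (2.19 ± 0.44, adjusted p = 0.00768), and NDUFB7, a subunit of complex I, -0.77 and 0.55 against -2.11 and -2.19 (2.04 ± 0.47). MESP1, C19orf70 and DPM3 differed by 2.08, 2.07 and 2.06. The coding sequences of these 5 genes run from 276 to 804 nt. In all 10 genes both shDAP5 cultures lay beyond both shNSi cultures, which the choice of genes required. Each of the 10 kept its direction with an adjusted p under 0.05 against the shNSi moderate pool.

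Of 16 mRNAs that the study listed as most reduced in polysomes, 15 were tested and 9 were called for a lower heavy-to-light ratio in shDAP5 than in shNSi cells. The study's measure was translation efficiency, mRNA in polysomes over total mRNA, which is not the ratio used here. A loss shared by heavy and light polysomes would leave the heavy-to-light ratio unchanged. The list was chosen on these samples, so it is not independent evidence of the direction. Its median difference was -1.52, and its median coding length was 3144 nt. All genes from 3000 to 5000 nt had a median difference of -1.04, with 33.1% called lower. ITGA1 had log2 ratios of -0.15 and -0.22 in shDAP5 and 1.65 and 3.05 in shNSi cultures (-2.55 ± 0.48, adjusted p = 0.00768). ITGAV, the alpha-v integrin, had ratios of 1.60 and 0.41 against 3.34 and 3.55 (-2.44 ± 0.44, adjusted p = 0.00768). MMP3, a matrix protease with only 10 to 28 counts in the heavy and light shDAP5 libraries, differed by -2.13 ± 0.60, TP53BP1, a DNA break response factor, by -2.04 ± 0.44, LAMC1 by -1.80 ± 0.49, OSMR by -1.59 ± 0.42, ITGA5 by -1.57 ± 0.44, MMP1 by -1.50 ± 0.45 and CDK12 by -1.43 ± 0.43. Against the moderate pool MMP3 (adjusted p = 0.0912), OSMR (0.0596), MMP1 (0.77) and CDK12 (0.126) no longer passed. Within shDAP5 cells ITGAV, OSMR, MMP1 and CDK12 were called heavy, CDK12 with 90.3 and 62.7 CPM in heavy and 31 and 41.4 CPM in light libraries. EGFR (-1.42 ± 0.48, adjusted p = 0.059), ITGA3 (-1.52 ± 0.54, 0.0734), ETS1 (-0.49 ± 0.48, 0.565), SERPINE2 (-0.44 ± 0.43, 0.567), JUN (0.51 ± 0.58, 0.63) and MYCL (1.97 ± 0.74, 0.0866) did not pass the test of the difference. Against the moderate pool EGFR passed with a lower ratio in shDAP5 cells (-1.09, adjusted p = 0.0448) and MYCL, which averaged only 0.777 CPM in the heavy and light shDAP5 libraries, with a higher one (2.25, 0.0123). FLI1 had 1 to 5 counts per library and was not tested. In the study's immunoblots the proteins of ETS1, SERPINE2, EGFR, JUN and MYCL were lower after DAP5 silencing by siRNA. Protein level is not measured by the RNA ratio used here. GAPDH, LMNA and HNRNPD (AUF1) were controls by protein level in the study, and ACTB was its eIF4E-dependent mRNA. These controls were all called heavy in shDAP5 cells, from 1.70 to 2.50. Their differences ran from -0.72 ± 0.52 to 0.47 ± 0.72, none called against light polysomes. Against the moderate pool the differences were 1.90 for ACTB, 1.65 for GAPDH, 1.40 for HNRNPD and -0.0033 for LMNA. Of these only HNRNPD passed the test, with a higher ratio in shDAP5 cells (adjusted p = 0.0428).

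**Figure D5:**
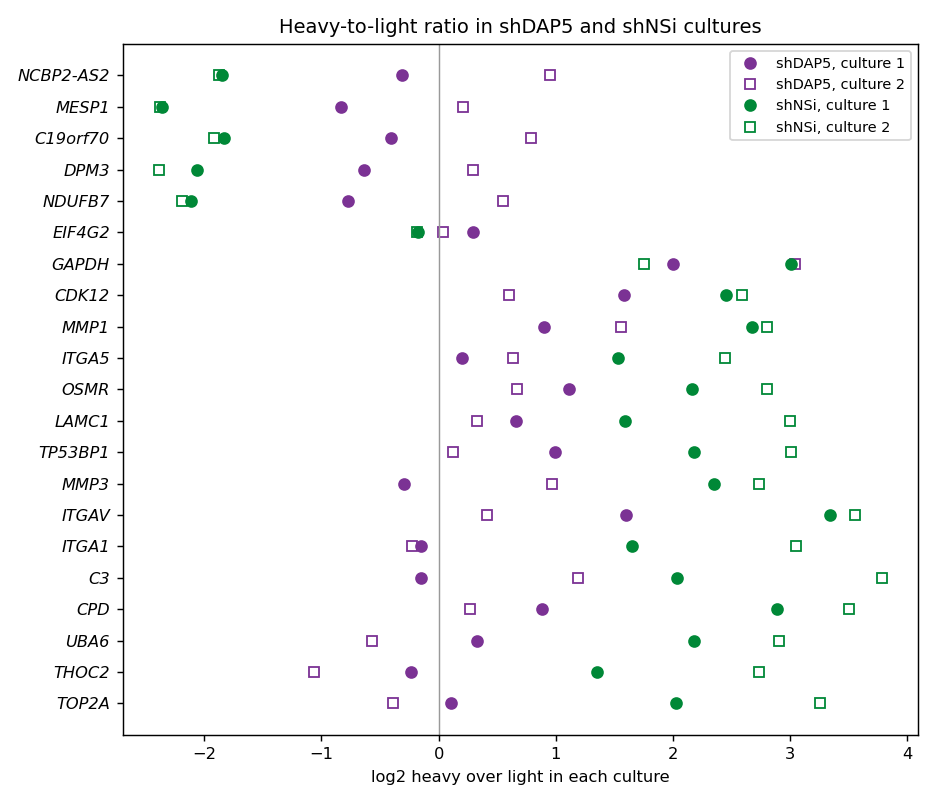
Log2 ratio of heavy to light polysomes (x axis) in each culture of shDAP5 (purple) and shNSi (green) cells, filled circle for culture 1 and open square for culture 2, for the 5 lowest and 5 highest differences, 9 called genes of the study's list, EIF4G2 and GAPDH (y axis). EIF4G2 differed by 0.34 ± 0.53 (adjusted p = 0.741) and GAPDH by 0.14 ± 0.69 (adjusted p = 0.928).

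Several other lists had called differences, where 7.25% of all genes were called lower and 1.89% higher. Laminin and collagen chains (14 of 25), DNA repair genes (14 of 31), integrin subunits (7 of 14) and genes with very long coding sequences (14 of 40) had members called lower and none higher, with medians from -1.69 to -1.31 (-1.36 to -1.06 against the moderate pool). Among all genes 33.1% from 3000 to 5000 nt and 32.3% above 5000 nt were called lower, and the median coding lengths of these lists were 3042 nt or more. Shorter lists had lower calls too: endoplasmic reticulum chaperones had 6 of 16 (median coding length 1514 nt), where 6.11% of all genes from 1500 to 2000 nt were called lower, and aminoacyl-tRNA synthetases had 5 of 20 (2075 nt), where 18.6% from 2000 to 3000 nt were. Their median differences moved from -1.24 and -1.14 to -0.22 and -0.63 against the moderate pool. Mitochondrial ribosomal proteins (22 of 77) and the respiratory chain (21 of 66, with 1 lower) had members called higher, with medians of 0.99 and 1.19 (1.29 and 0.57 against the moderate pool). Cytosolic ribosomal proteins had 4 of 83 called higher and 0 lower, with a median of 1.18 (0.58 against the moderate pool). Median coding lengths of the mitochondrial ribosomal, respiratory chain and cytosolic ribosomal lists were 582, 428 and 444 nt. Among all genes 12.1% from 300 to 500 nt and 7.09% from 500 to 750 nt were called higher. The median differences of these length classes were 0.79 and 0.65 (-0.13 and 0.51 against the moderate pool). Glycolytic enzymes (median coding length 1302 nt) had 2 of 18 called lower, where 7.25% of all genes and 0.79% of those from 1000 to 1500 nt were. Their median difference was -0.57, and against the moderate pool it was 0.73.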

How the data were processed

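RNA sequencing read counts per gene symbol were deposited by the authors as raw whole-number counts, without normalization, for 14 libraries. The submitters' processing notes name STAR 2.6.0a, limma and the hg19 build. The deposited table is named for featureCounts, whose version and settings are not given in the sources used here. Here the 4 shDAP5 heavy and light libraries were fitted with edgeR 4.0.16 (R 4.3.3) by a robust quasi-likelihood test with TMM scaling, culture as a block and Benjamini-Hochberg adjustment over all 15436 genes tested. The difference between lines was an interaction term over 8 libraries with a term for each of the 4 cultures. Counts of the 2 cultures differed by more than sampling noise (chi-square per degree of freedom 80.1 in heavy and 39.9 in light libraries). Culture numbers are the replicate numbers of the labels. The heavy and light library with the same number were taken as 1 culture, which the labels do not state in words. Deviations of the pair correlated at r = 0.165 (shDAP5) and 0.267 (shNSi) across genes. Exact permutation of 2 pairs cannot go below p = 0.5. An SE is that of the fitted log2 ratio. A log2 ratio of a single culture used a prior count of 2.

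Coding and UTR lengths were those of the APPRIS principal transcript in GENCODE release 29 (GRCh38), matched by symbol for 14000 of 15436 genes. Promoter windows came from RefSeq. Since that build differs from hg19, no other coordinates are given. Of the symbols, 27 had turned into dates and 2 were duplicated.

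Genes were named by rule: the 10 highest and 10 lowest called ratios (adjusted p under 0.05) among genes whose mean was 10 CPM or more and whose cultures shared a sign; the 5 highest and 5 lowest called differences, at the same CPM minimum, without overlap between lines; the highest, lowest and most abundant member of each list with at least 10 CPM, or all members of a list with at most 5 tested; EIF4G2, the study's listed genes and controls; and line markers. Further genes named in the text are list members chosen after their values were seen. The members and lists were chosen with earlier results of these data known. The fits were tested on simulated counts with a small set of changed genes, as many up as down, and 1 dispersion for all. In the data 49.7% of genes were called in shDAP5 cells, so the simulation cannot speak to their setting. Alternatives were DESeq2 1.42.0, limma 3.58.1 on quantile-normalized log2(CPM + 1), no TMM, other count filters, no block, all libraries in 1 fit, each culture left out, and the moderate or summed shNSi pools. No fold change or p-value of the authors was used.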

Additional observations from a re-analysis of the deposited data

Results flagged for a closer look

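The heavy-to-light ratio differed between shDAP5 and shNSi cells by the interaction term for 292 genes with a higher and 1119 genes with a lower ratio in shDAP5 cells. Among the genes whose difference the text gives, the log2 difference (shDAP5 minus shNSi, 2 cultures each) was below 0 and past an adjusted p of 0.05 for TOP2A (-2.78), THOC2 (-2.70), UBA6 (-2.66), CPD (-2.62), C3 (-2.61), ITGA1 (-2.55), ITGAV (-2.44), MMP3 (-2.13), TP53BP1 (-2.04), LAMC1 (-1.80), OSMR (-1.59), ITGA5 (-1.57), MMP1 (-1.50) and CDK12 (-1.43). It was above 0 and past the same threshold for NCBP2-AS2 (2.19), MESP1 (2.08), C19orf70 (2.07), DPM3 (2.06) and NDUFB7 (2.04). For TOP2A, THOC2, UBA6, CPD, C3 and the 5 genes above 0, the choice of genes required that the lines did not overlap. C3 (29 to 58 counts) and MMP3 (10 to 28 counts) were low in the 4 heavy and light libraries of shDAP5 cells.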

How the results depend on the processing

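Of 122 named genes, 58 kept their direction and their side of the threshold in shDAP5 cells under every alternative tried, as did 2 of 30 differences between the lines, and 9 of 31 list medians stayed within 1 SD of the cultures. Among the named genes, 39 lost a call under at least 1 alternative and 11 gained one. Without culture 1 the call was lost for 29 named genes and without culture 2 for 26, in fits with fewer libraries. Of the 30 differences recomputed, all 19 that were called were lost without shDAP5 culture 2, without shNSi culture 2, without the block and with limma. Without culture 1 or culture 2 the shDAP5 calls ranged from 1722 to 1727 genes higher in heavy polysomes and from 1589 to 1615 higher in light polysomes, with the lone pair assumed to vary like the other libraries. In the difference between the lines, leaving out 1 culture gave 0 to 1184 genes with a higher and 0 to 1816 with a lower ratio in shDAP5. Genes with a higher ratio numbered 494 with DESeq2 (adjusted p not given for 3591 genes), 445 with at least 10 counts in every library and 958 with the shNSi light and moderate pools summed. All 14 libraries in 1 fit gave 791 higher and 2032 lower, library size without TMM 997 and 638, and the moderate pool in place of light 1652 and 2132. In shNSi cells with the moderate pool, 2132 genes were higher in that pool than in heavy polysomes. By limma on quantile-normalized values the difference gave 0 and 0 calls (3810 genes at an unadjusted p under 0.05).

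Cultures were paired by number: without the replicate block edgeR gave 3654 and 3489 calls in shDAP5 cells, and 0 higher and 0 lower in the difference, with 3394 genes at an unadjusted p under 0.05. The cause was not tested.

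Without TMM the shDAP5 ratio changed sign for AMD1 (-0.067), C19orf70 (-0.023), EIF4G2 (-0.050) and HSP90B1 (-0.17). With limma it did so for AMD1 (-0.11), C19orf70 (-0.098), HSP90B1 (-0.26) and LAMA5 (-0.043), with 10 counts in every library for HSP90B1 (-0.052) and without a filter for TUG1 (0.0055). Leaving out either culture gave ranges that crossed 0 for C19orf70 (-0.37 to 0.78), C3 (-0.13 to 1.24), DPM3 (-0.61 to 0.29), EEF1B2 (-0.25 to 0.21), FOSL1 (-0.49 to 0.075), HSP90B1 (-0.016 to 0.13), LAMA5 (-0.59 to 1.05), MESP1 (-0.81 to 0.20), MMP3 (-0.32 to 1.05), NCBP2-AS2 (-0.28 to 0.95), NDUFB7 (-0.74 to 0.54), SDF2L1 (-1.03 to 0.057), TOP2A (-0.40 to 0.14), TUG1 (-0.18 to 0.15) and UBA6 (-0.57 to 0.36). None of these was called in shDAP5 cells. The difference crossed 0 for ACTB (-0.55 to 1.60), GAPDH (-0.45 to 0.84), HNRNPD (-0.72 to 1.16), JUN (-0.51 to 1.62) and SERPINE2 (-0.84 to 0.051). For ETS1 and SERPINE2 it turned to 0.12 and 0.36 with the summed pools and to 0.58 and 0.90 with the moderate pool. Median ratios changed sign for the eIF4F family (-0.050 without TMM, -0.16 without a filter) and the small structured RNAs (0.17 with 10 counts in every library, 0.19 with limma). Leaving out either culture did so for mitochondrial ribosomal proteins (-0.0056 to 0.62), the respiratory chain (-0.59 to 0.13) and iron-responsive mRNAs (-0.16 to 0.024).

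With 2 cultures a line, the error of a ratio rests on few degrees of freedom shared over genes, and a missed call does not show that a ratio is 0.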
